A study of Bos taurus with 20 samples.

Results

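Albumin and 9 other proteins that the liver secretes into blood plasma are described here by their transcripts in cattle muscle. The 10 genes were ALB, TF, AHSG, AMBP, SERPINA1, APOA1, APOA2, FGA, FGB and FGG. They were chosen because earlier results of the same arrays showed very high signal for such genes on a few arrays, so their levels are given as a description. All probe sets annotated to exactly 1 of these symbols were taken, which gave 27 of the 24016 probe sets that are not array controls and covered 9 of the 10 genes. FGA was not analysed here. ALB had 9 probe sets, AHSG 8, and SERPINA1, AMBP and FGB 2 each. APOA1, APOA2, TF and FGG had 1 each.

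The tissue was Musculus longissimus dorsi, the long back muscle, of 20 crossbred bulls from the F2 generation of the Holstein and Charolais breeds, kept for milk and for beef. Of these, 10 had high and 10 low content of intramuscular fat (IMF), the fat between the muscle fibres, and each animal had 1 array. In each IMF group, 5 titles carried an S before the animal number and 5 did not; the meaning of the S is not stated in them. Arrays are named below by IMF group and replicate number, where numbers up to 5 have no S in the title and those above 5 have one. The animal is the replicate. The numbers order the arrays by deposit and pair no animals.

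Plasma proteins of this kind are made mainly by hepatocytes, the main cells of the liver, which secrete them in large amounts. Albumin holds water in the bloodstream and carries fatty acids, transferrin (TF) carries iron, and the apolipoproteins coat lipid particles. The fibrinogen chains form the blood clot. In a bulk sample such as this, a change in the number of cells of a type and a change in RNA per cell cannot be told apart.

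The deposited values are linear signal intensities per probe set. Array medians lay between 51.6 and 67.6, and 0.462% to 1.05% of the values of an array were 0. No detection calls were used, so signals of a few units have no measured distance from background. The summed signal of 11 muscle fibre markers ran from 149805 to 169229 over the 20 arrays. For a gene with several probe sets, the one with the highest mean over all arrays was used as its lead probe set. A probe set was called raised on an array where its signal plus 1 was at least 4 times its own 20-array median on the same scale, and folds below are on this scale, which understates the change of dim probe sets. The signal of a probe set also depends on how well its probes bind, so levels were not compared between genes, and a ratio between genes was read only for its change from array to array.

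ALB was far above its usual signal on 4 arrays. It read 83307 on low 3, 59753 on high 10, 11889 on high 8 and 4871 on high 6. The next highest arrays were high 7 at 469 and low 9 at 440, and the 16 other arrays ran from 245 to 469. On low 3 and on high 10 ALB was the brightest of all probe sets, with 0.902% and 0.654% of the summed signal of the array. It ranked 50 on high 8 and 355 on high 6. Large steps separated these 4 arrays from each other and from the remaining 16, as the per-gene plots of signal show. Of the 4 arrays, 3 were of high IMF animals with S titles and 1 of a low IMF animal without S. None was in the other 2 combinations of IMF and title.

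**Figure D1:**
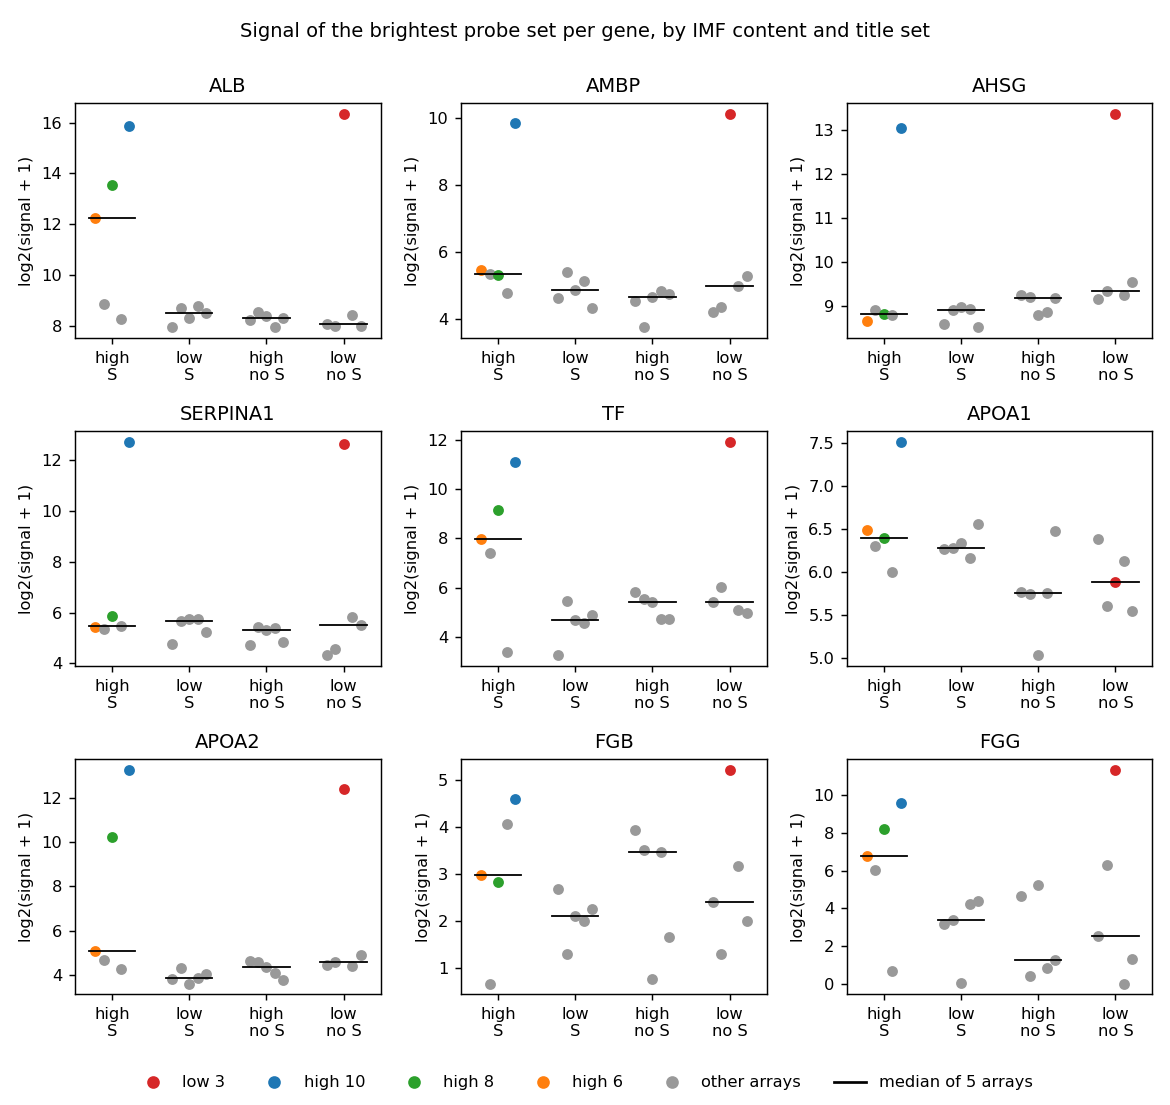
Log2(signal + 1) of the lead probe set of each of the 9 genes, with 1 point per array and the median of 5 arrays as a line, by IMF content (high, low) and title set (S, no S). Low 3 and high 10 are the highest 2 arrays in every panel but that of APOA1, while high 8 stands out in ALB, TF, APOA2 and FGG and high 6 in ALB, TF and FGG.

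The members rose together on low 3 and high 10. On each of these arrays 8 of the 9 genes were raised, and they were the same 8, all but APOA1. FGB was the weakest of them, at 6.32-fold on low 3 and 4.11-fold on high 10. It was dim, and at a threshold of 8 times the median it was raised on neither array. Over all 9155 genes with a probe set, 0.83% were raised on low 3, 1.21% on high 10 and 0.655% on both. On high 8, 4 members were raised (ALB, TF, APOA2 and FGG) against 0.492% of all genes. On high 6 there were 3 (ALB, TF and FGG) against 0.339%; at a threshold of 8 times the median only 1 of these, ALB, remained, as TF was 5.90-fold and FGG 7.50-fold. Among the lead probe sets FGG alone was raised on high 7 and on low 2, where 0.24% and 0.12% of all genes were, and no member was raised on any of the other 14 arrays, where 0.105% of all genes were on average. Since the members were picked for their signal on a few arrays, these shares give the scale and are no test.

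**Figure D2:**
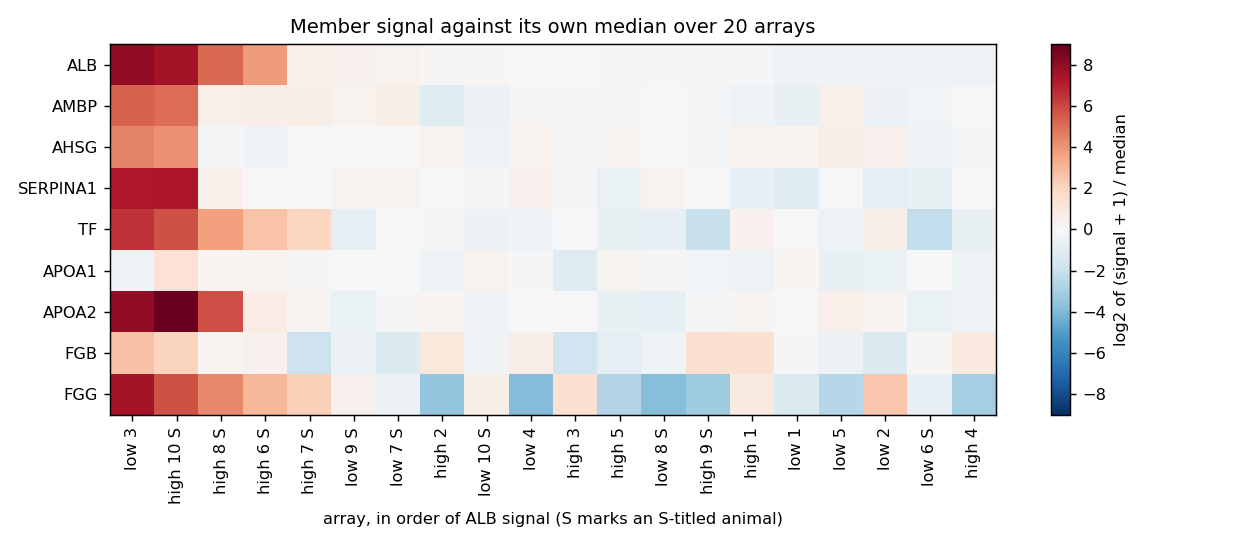
Log2 of (signal + 1) over its 20-array median for the lead probe set of each gene (rows) on each array (columns), with arrays in order of their ALB signal and S marking the S-titled animals. Red cells fill 8 of 9 rows on the first 2 arrays, 4 on the third, high 8, and 3 on the fourth, high 6; APOA1 stays under 2, the log2 of the 4-fold threshold, on every array.

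Among the carrier proteins, TF followed ALB on all 4 arrays. It read 3902 on low 3, 2227 on high 10, 566 on high 8 and 253 on high 6, and high 7 came next at 167, just under the threshold at 3.91 times the median. High IMF animals ran from 9.57 to 2227 with a median of 50.6 and low IMF animals from 8.46 to 3902 with a median of 31.7, so the groups overlapped over most of their range. AHSG, the glycoprotein fetuin-A that binds calcium phosphate, has several probe sets, and 1 of them, described below, was raised on further arrays. The lead AHSG probe set was raised on the first pair of arrays only, at 10652 on low 3 and 8566 on high 10. High 8 at 451 and high 6 at 398 lay below its median of 491. AMBP, the precursor of alpha-1-microglobulin and bikunin, showed the same pattern with 1112 on low 3 and 926 on high 10, and a range of 12.3 to 42.8 on the other 18 arrays.

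SERPINA1, the inhibitor of neutrophil elastase, read 6722 on high 10 and 6378 on low 3, or 156 and 148 times its median. All other arrays lay between 18.9 and 57.3, with high 8 the highest of these. Its lead probe set thus separated low 3 and high 10 from the rest by a factor over 100 and set high 8 and high 6 apart from no other array.

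The apolipoproteins differed from each other. APOA2, a protein of high density lipoprotein, had the largest fold of any member, 468 times its median on high 10, where it read 9936. It read 5410 on low 3 (255-fold), 1199 on high 8 (56.5-fold) and 33.0 on high 6 (1.60-fold). High 10 was above low 3 for APOA2, the reverse of the order for ALB. APOA1, the main protein of the same particle, read 58.2 on low 3, under its median of 73.6, and 182 on high 10, 2.46 times that median. Its other arrays ran from 31.6 to 93.6.

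APOA1 was also the only member measured without a raised probe set on any array. The sequence identifier annotated to its single probe set is among the RefSeq transcripts for cattle. That this transcript belongs to APOA1 was not checked. In the RefSeq gene table for cattle (assembly ARS-UCD2.0), APOC3, another apolipoprotein, is the gene next to APOA1. APOC3, with a dim median of 2.76, was raised 82-fold on low 3, 114-fold on high 10, 12.6-fold on high 8 and 13.1-fold on high 6.

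Of the fibrinogen chains, FGG was raised on 6 arrays, more than any other member. It read 2611 on low 3, 780 on high 10, 291 on high 8 and 110 on high 6, followed by low 2 at 77.8 and high 7 at 65.7. Its median was 13.7 and its lowest array read 0.01, so it varied widely among the dim arrays as well. FGB read 36.3 on low 3 and 23.2 on high 10, with high 9 next at 15.7 and a median of 4.89. The other FGB probe set did not show the rise, at 1.35-fold on low 3 and 0.18-fold on high 10, with a highest signal of 10.8. FGB was dim on every array, and neither of its probe sets was bright enough for the fits across probe sets below.

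The ratio of a member to ALB was nearly kept between low 3 and high 10 for some members and not for others. From high 10 to low 3, the log2 ratio to ALB changed by -0.17 for AHSG, 0.14 for FGB, -0.22 for AMBP, 0.33 for TF and -0.55 for SERPINA1. It changed by -1.36 for APOA2 and by 1.26 for FGG, so that APOA2 was higher relative to ALB on high 10 and FGG on low 3. Of the 7 members other than ALB that were raised on both arrays, these 2 changed by over 1 log2 unit. APOA1, not raised on either array, changed by -2.11. Quantile normalization gives the brightest probe set of every array the same value, and ALB was that probe set on both arrays; after it 1 of these 7 changed by over 1 log2 unit, with APOA2 at -0.80. There is 1 array per animal, so none of these ratios has an error.

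Since dim members have a level of their own on every array, the signal above the 20-array median was also set against that of ALB; this description was chosen after the values had been seen. For TF this excess was 4.65% of that of ALB on low 3, 3.68% on high 10, 4.54% on high 8 and 4.65% on high 6. The share of TF thus ran from 3.68% to 4.65% on these 4 arrays, over which the ALB signal varied 17.1-fold. On high 7, where ALB was only 1.39 times its median, the TF excess was 94.7% and the FGG excess 39.3% of that of ALB. FGG came to 3.13%, 1.29%, 2.40% and 2.11% on the same arrays.

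Other members did not keep that proportion on high 8 and high 6. Scaled from low 3 by ALB, SERPINA1 would have read 924 on high 8 and 388 on high 6, and the measured signals were 57.3 and 41.7. For the lead probe set of AHSG the scaled signal was 1906 on high 8 and the measured one 451. For AMBP it was 179 and the measured one 38.2. APOA2 was above its scaled signal of 771 on high 8, at 1199, and below that of 315 on high 6, at 33.0. By their lead probe sets, high 8 and high 6 thus differed from each other in APOA2 and from low 3 in SERPINA1, AHSG and AMBP.

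Further probe sets of SERPINA1 and AHSG did not all follow the lead. A dimmer SERPINA1 probe set read 86.0 on low 3, 98.8 on high 10, 25.4 on high 8 and 18 on high 6 over a median of 13.4. Among the 16 other arrays its highest signal was 25.8, on low 7, so neither high 8 nor high 6 stood above them. Its excess was 0.0875%, 0.144%, 0.104% and 0.101% of that of ALB, while the share of the lead probe set was 7.64% on low 3 and 0.131% on high 8. The AHSG probe set that matches a RefSeq transcript read 551, 609, 121 and 40.4 over a median of 5.34, with shares of 0.657%, 1.02%, 0.999% and 0.773%. By this probe set AHSG was raised on high 8 (19.2-fold), high 6 (6.53-fold) and high 7 (4.80-fold) as well. The other 2 AHSG probe sets raised on both bright arrays went with the lead in not being raised on high 8 or high 6; the brighter of them was 2.46-fold and 1.38-fold there, and on high 8 it read 103 against a scaled signal of 213. The lead AHSG probe set, with a median of 491, was not raised on either array, so which arrays count as raised for AHSG depended on the probe set.

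**Figure D3:**
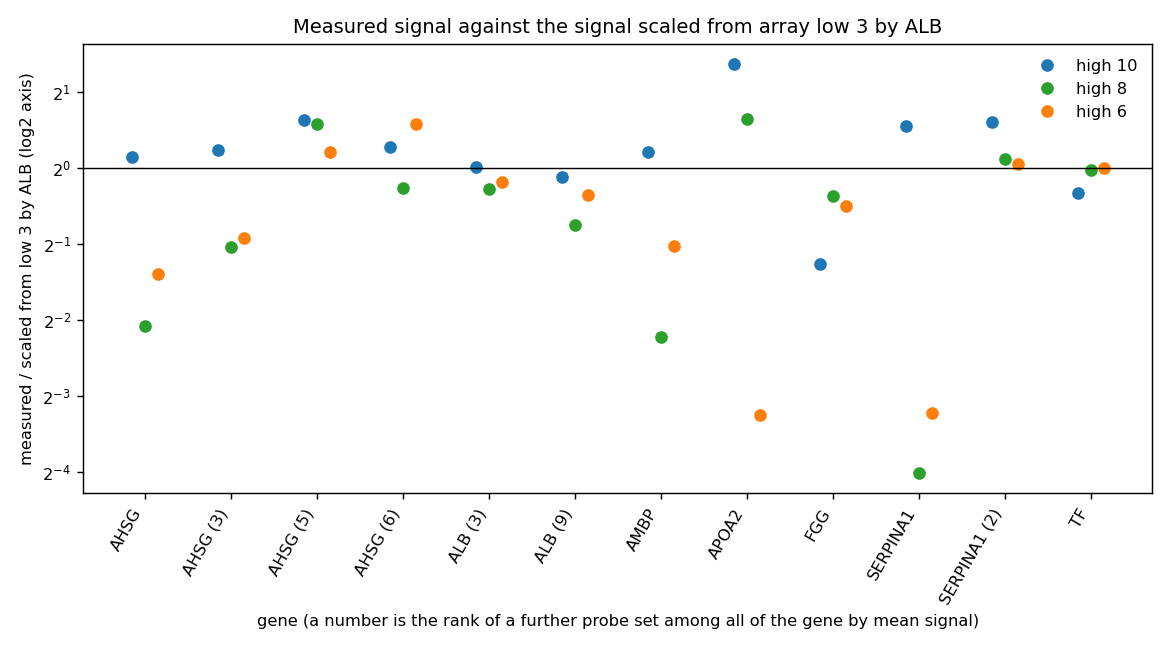
Measured signal over the signal scaled from array low 3 by the ALB excess (log2 axis; 1 means the same proportion to ALB as on low 3) for each probe set above 80 on low 3 that was raised there, on high 10, high 8 and high 6. TF stays near 1 on all 3 arrays, while the lead probe sets of SERPINA1, AHSG and AMBP fall well below 1 on high 8; the further SERPINA1 and AHSG probe sets lie closer to 1, though AHSG (3) is below it on both high 8 and high 6.

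Only some probe sets carrying a member symbol showed the rise. Of 27, 14 were raised on both low 3 and high 10, against 0.429% of all probe sets. Among 7 whose annotated sequence identifier is a RefSeq transcript of any gene, 6 were raised on both, the exception being APOA1. Among the 20 others 8 were. For ALB, 3 of 9 probe sets were raised on both and for AHSG 4 of 8. The other 6 for ALB read 0.464 to 1.31 times their medians on low 3 and 0.496 to 1.48 times on high 10. The second of the raised ALB probe sets read 7812, 5659, 912 and 395 on low 3, high 10, high 8 and high 6, with an excess of 7.68% to 9.48% of that of the lead, so these 2 probe sets ranked the 4 arrays alike. The third was dim, at 92.1 on low 3 and 63.9 on high 10, and was not raised on high 8 or high 6. It read 14.0 and 13.2 there, against scaled signals of 23.6 and 16.9.

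**Figure D4:**
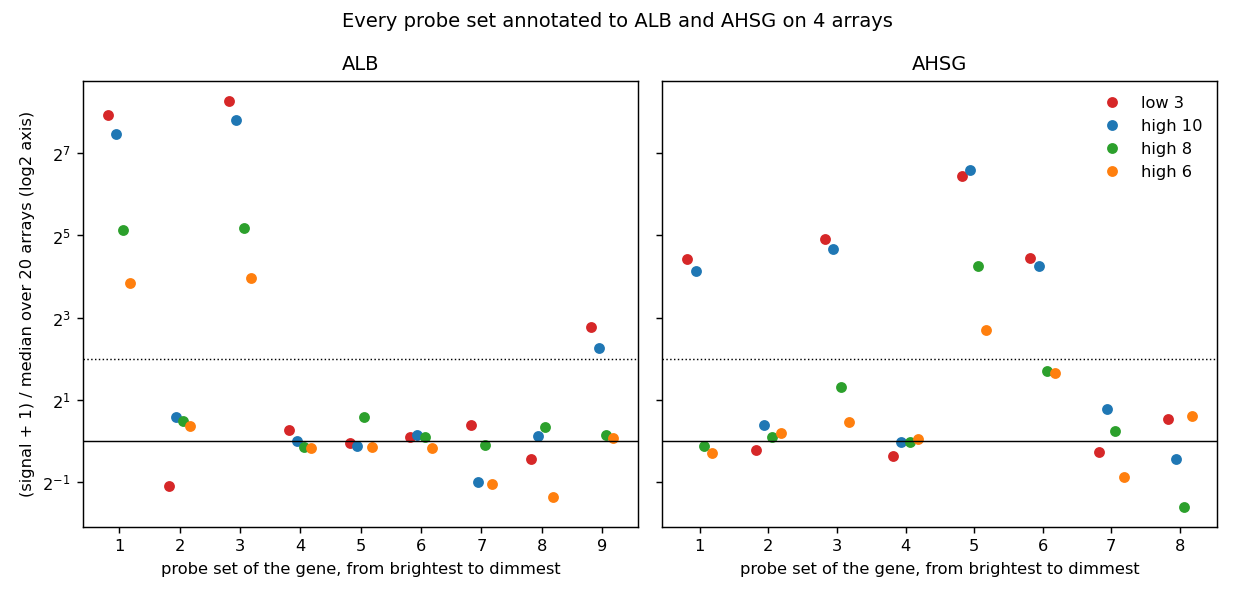
Signal plus 1 over its 20-array median (log2 axis) for the 9 probe sets annotated to ALB and the 8 annotated to AHSG, in order of mean signal, on low 3, high 10, high 8 and high 6, with the dotted line at 4. For ALB, 3 probe sets are above the dotted line on low 3 and high 10, and for AHSG 4 are; the others scatter around 1.

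Whether IMF content went with the members was tested with limma over 14409 probe sets, 17 of them of members, with Benjamini-Hochberg adjustment. Dim probe sets were left out, with the cut at a mean signal of 43.32 over all arrays. On the 16 arrays with ALB at or under 2000, the lead probe sets of APOA2 and AMBP read at most 28.43 and 40.83. Both were thus kept because of their signal on the arrays with ALB over 2000. The medians of FGG (13.7), SERPINA1 (42.1) and TF (42.0) over all arrays were also under the cut. No probe set passed in high against low IMF (0% called; 237 had an unadjusted p under 0.05, and a t-test gave 0 calls with 253 under 0.05). In ALB the difference was 0.91 log2 units (SE 1.11, adjusted p = 0.9997), with 6 of 10 high IMF animals above the low IMF median. The log2 differences were 0.91 for TF, 0.86 for APOA2, 0.70 for FGG, 0.06 for SERPINA1, 0.03 for APOA1, -0.0060 for AMBP and -0.10 for AHSG. The SE was 0.96 for TF, 1.20 for APOA2 and 1.38 for FGG, as large as the differences or larger.

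Single arrays decided these values. Without high 10 the ALB difference was 0.26, and without low 3 it was 1.71. For SERPINA1 the same 2 omissions gave -0.68 and 0.80 and for APOA2 0.04 and 1.68. By title set, ALB differed by 3.31 in the S-titled animals (adjusted p = 0.625 in limma) and by -1.49 in the others (adjusted p = 0.991). Without low 3 the difference in animals without S was 0.16, and without high 10 that in the S-titled animals was 2.28.

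In the S-titled animals, the 5 high IMF arrays read 4871, 469, 11889, 308 and 59753 for ALB, against 245 to 440 in the 5 low IMF arrays. The high IMF median was 4871 and the low IMF median 360, and 1 high IMF array, high 9, lay inside the low IMF range. In animals without S the high IMF arrays ran from 245 to 369 and the low IMF arrays other than low 3 from 254 to 342. The interaction of IMF and title was 4.79 log2 units for ALB (SE 1.98), 5.43 for APOA2, 5.03 for FGG, 4.69 for TF and 2.97 for SERPINA1. No probe set passed in limma (0% called, 788 with an unadjusted p under 0.05; adjusted p = 0.862 for ALB). Without the 4 arrays with ALB over 2000, a choice made by the ALB signal itself, it was -0.04 for ALB, 0.82 for APOA2 (SE 0.30), 0.37 for FGG, 0.96 for TF and -0.10 for SERPINA1.

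Between title sets most probe sets differed. With IMF in the model, 68.4% of all tested probe sets passed in limma, 33.5% with the S-titled animals higher. Of the 17 member probe sets 4 passed, all 4 higher in S, a share below that of all probe sets. None of these 4 was raised on low 3 or high 10. The second brightest ALB probe set by mean signal read 1244 to 1569 with a median of 1343 in the S-titled animals and 456 to 812 with a median of 562 in the others. The sets did not overlap, and the difference was 1.26 log2 units (SE 0.08, adjusted p = 1.75e-10 in limma). Unlike the lead ALB probe set, this one does not match a RefSeq transcript in the annotation. The lead probe sets of AHSG, APOA2, FGB and FGG do not match one either, and they were read as their genes. This ALB probe set was 0.464-fold on low 3 and 1.48-fold on high 10, where the lead was 247-fold and 177-fold. Because it did not follow the lead, its difference was not read as one in ALB transcript.

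APOA1 read 63.2 to 182 with a median of 79.0 in the S-titled animals and 31.6 to 87.9 with a median of 53.4 in the others, a difference of 0.60 (SE 0.18, limma adjusted p = 0.00589). Without the 4 arrays with ALB over 2000 it was 0.40, and the call was lost (adjusted p = 0.0546). The lead ALB probe set differed by 1.08 (adjusted p = 0.392), and by 1.99 without low 3 (adjusted p = 0.0258). AHSG differed by -0.39 (adjusted p = 0.557), and by -0.42 without the 4 arrays (adjusted p = 0.00383). Low 3 is the only array without S among those 4. The arrays left out here were singled out by their ALB signal, so the values without them are a description and no test.

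Other liver genes were raised on the same arrays. Of 61 listed plasma proteins of the liver 55 were measured, and 27 were raised on low 3, 25 on high 10, 22 on both, 10 on high 8 and 5 on high 6. Over all genes the shares were 0.83%, 1.21%, 0.655%, 0.492% and 0.339% in the same order. On high 7, 2 of the 55 were raised, against 0.24% of all genes, and at most 1 was on any further array. Among those raised on high 6 was RBP4 (4.74-fold), named after its value was seen. RBP4 was 2.88-fold on low 3, 7.23-fold on high 10 and 3.13-fold on high 8, an order unlike that of ALB. The median fold of the list was 3.47 on low 3 and 3.14 on high 10, against 0.990 and 1.05 over all genes. GC, the carrier of vitamin D, had a dim median of 2.22 and was raised 186-fold on low 3, 110-fold on high 10, 28.8-fold on high 8 and 6.32-fold on high 6. TTR, a carrier of thyroid hormone, was raised 72.2-, 100-, 15.2- and 6.38-fold on the same arrays. APOH, a phospholipid-binding plasma protein, was raised 119-fold on low 3, 121-fold on high 10 and 18.7-fold on high 8.

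Low 3 and high 10 differed in a few of these genes. HPX, which binds free haem, was 75.3-fold on low 3 and 4.32-fold on high 10. CP, the copper protein ceruloplasmin, was 22.5-fold and 1.79-fold, and ITIH1, a heavy chain joined to the bikunin that AMBP encodes, was 1.39-fold and 25.0-fold. CP and ITIH1 were chosen after their values were seen.

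Some intracellular genes of hepatocytes were raised as well. Of 35 measured enzymes and transporters 9 were raised on low 3, 10 on high 10, 9 on both, 3 on high 8 and 1 on high 6. The gene raised on high 6 was PCK1 (7.60-fold), named after its value was seen, which fat cells also express. On high 7, 1 of the 35 was raised, against 0.24% of all genes, and at most 2 were on any further array. FABP1, the fatty acid binding protein of liver, was 41.1-fold on low 3, 47.2-fold on high 10 and 6.90-fold on high 8. HGD, an enzyme of tyrosine breakdown, was 32.5-, 44.1- and 8.11-fold on these arrays, and CPS1, the first enzyme of the urea cycle, 17.4-, 12.6- and 3.35-fold. The brightness filter kept 11 of the 35 genes. FABP1 and HGD, with medians of 3.12 and 4.02, were not among them, so their folds rest on very dim medians. Of 16 listed liver transcription factors only 7 were measured. None of these was raised on any of the 4 arrays, where 0.339% to 1.21% of all genes were, so a count of 0 is near that share. HNF4A, with a median signal of 171, was 0.987-fold on low 3 and 0.710-fold on high 10. Of 12 markers of other liver cells 1 was raised, CD5L of macrophages, 9.29-fold on low 3 and 4.57-fold on high 10.

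Few markers of other tissues were raised. None of 6 kidney, 9 exocrine pancreas, 9 intestine, 7 mammary gland and 11 muscle fibre genes was raised on any of the 4 arrays. Over all genes 0.83% were raised on low 3, 1.21% on high 10, 0.492% on high 8 and 0.339% on high 6. A count of 0 in lists this short is near those shares. The brightness filter kept only 1 kidney, 4 exocrine pancreas, 1 intestine and 2 mammary gland genes, so most of these markers were dim. Of 7 red blood cell genes 1 was raised on high 10, high 8 and high 6, SLC4A1, which read under 5 on all 3. Of 10 lymphocyte genes 1 was raised, JCHAIN on low 3 (4.77-fold).

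Fat cell markers were raised on high 10, high 8 and high 6, and none was on low 3. Of 10 measured, 8 were raised on high 10, 3 on high 8, 4 on high 6 and 0 on low 3, and the median fold was 6.40, 2.56, 3.68 and 0.531. The summed signal of the 10 markers was 33638 on high 10, 12509 on high 8, 23123 on high 6 and 3254 on low 3. High 6 was thus above high 8 in this sum and below it in ALB, and up to 4 of the fat cell markers were raised on an array other than these. The sum ran from 3029 to 33638 in high IMF and from 2695 to 13685 in low IMF animals. On low 3, where ALB was highest, ADIPOQ, a hormone of fat cells, was 0.863-fold. The markers CFD and LPL were 1.58-fold and 1.46-fold there, against the median of 0.531 over the 10 markers. Over all genes 0.83% were raised on low 3, so the count of 0 is near that share. The part of fat cells in the differences by IMF was not tested.

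**Figure D5:**
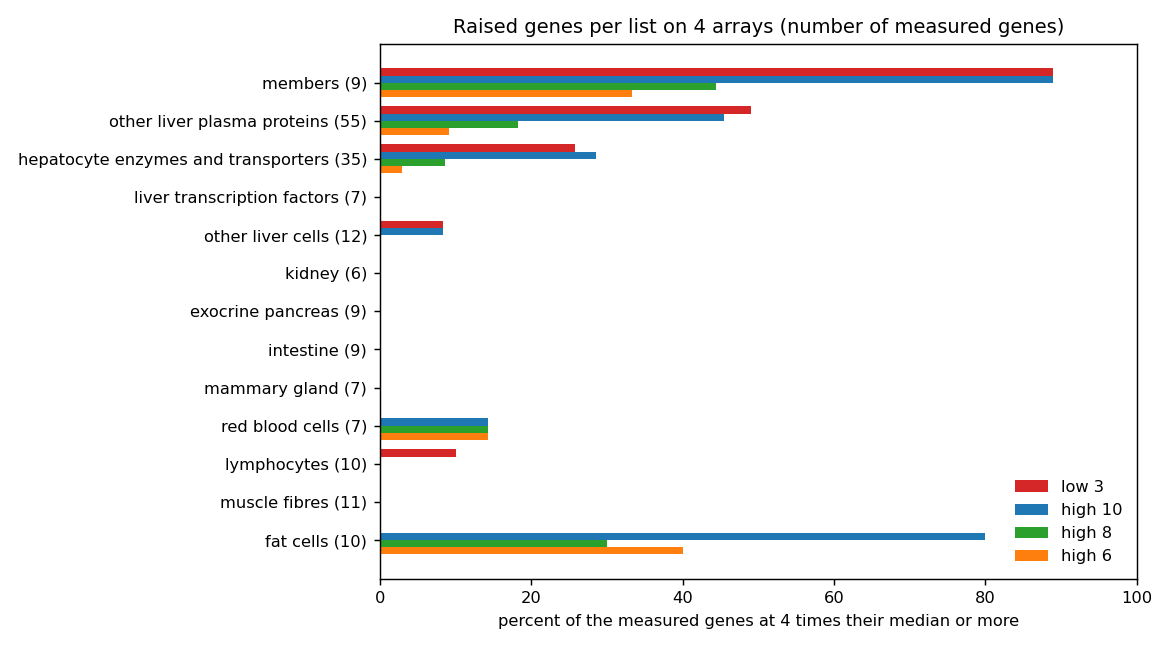
Percent of the measured genes of each list (number in parentheses) whose lead probe set was at 4 times its 20-array median or more, on low 3, high 10, high 8 and high 6. The members, other plasma proteins (27 of 55 on low 3) and hepatocyte enzymes have bars on all 4 arrays, fat cells on the 3 high IMF arrays and not on low 3, and 3 further lists have bars of 1 gene.

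Genes with a pattern most like that of ALB over the 20 arrays were found by Pearson correlation of log2 values among lead probe sets. The correlation is a description over arrays of which 4 stand far above the rest. The 10 nearest genes that are no members were SERPINC1 (r = 0.96), APOH (0.96), C4BPA (0.95), DPYS (0.94), CPS1 (0.92), GC (0.92), TTR (0.92), APOC3 (0.91), CFB (0.91) and CFI (0.90). Without low 3 and high 10, r was 0.88 for SERPINC1 and 0.61 for CFI. Among the members r was 0.95 for APOA2, 0.94 for TF, 0.88 for AMBP, 0.87 for SERPINA1, 0.81 for FGG, 0.79 for AHSG and 0.46 for APOA1. Without low 3 and high 10 it was 0.82 for APOA2, 0.81 for TF, 0.62 for FGG, 0.47 for AMBP, 0.39 for SERPINA1 and -0.33 for AHSG. Over the 16 arrays without high 8 and high 6 as well, r was -0.01 for APOA2, 0.41 for TF, 0.23 for FGG, 0.32 for AMBP, 0.53 for SERPINA1 and -0.22 for AHSG.

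Of the measured genes next to a member in the RefSeq table, and no members themselves, only APOC3 was raised on low 3 or high 10. AFP, the fetal counterpart of albumin beside ALB, read 0.01 on low 3 and 10.7 on high 10 over a median of 7. FETUB, a relative of AHSG beside it, read 4.95 and 8.21 over 4.86. SERPINA11, a relative of SERPINA1 beside it, was 0.771-fold on low 3 and 1.65-fold on high 10. FCER1G, an immune receptor chain beside APOA2, was 1.75-fold and 1.79-fold.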

How the data were processed

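Total RNA of 20 muscle samples was measured on 1 Affymetrix array each. The intensities were deposited as linear values per probe set; per the submitters' processing notes, GCOS 1.1.1 and Affymetrix Expression Console 1.1 were used. The probe summary method and the genome build are not given in the sources used. The normalization the authors deposited was kept. Of 24128 probe sets 112 were controls. The platform annotation gave 1 symbol for 13318, several for 86 and none for 10724, and none was named from several symbols. The identifiers of 13283 matched the RefSeq gene table, and 0 symbols changed.

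Values were taken as log2(value + 1). The 40% of probe sets with the lowest mean were left out of the fits, and 14409 were tested with limma 3.58.1 in R 4.3.3 (lmFit and eBayes, two-sided, Benjamini-Hochberg at 0.05), for high minus low IMF, for S minus other titles with IMF in the model, and for their interaction. A paired t-test is named in the series text, but no label ties 1 animal to another and every fit was unpaired. The fits were tested on simulated data with independent normal noise and the same shift in every animal of a group. Members that are high on a few arrays do not have that form, so the simulation does not cover them. Raised genes, ratios and correlations carry no test. The number of arrays limits the precision.

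The members, the threshold of 2000 for ALB and the gene lists were chosen with earlier results of these data known. Genes outside the members were named by rule: per list, up to 6 with the largest fold on the array with the highest ALB signal, and the 10 most correlated with ALB. Further genes, among them the neighbours of the members, were named by position or are marked where they appear. Alternatives were another pseudocount of 16, no filter, median centring, quantile normalization, each array left out, the arrays with ALB over 2000 left out, each title set alone, a t-test, permutation tests, and raised thresholds of 2 and 8. Fits without low 3, high 10 or both, within a title set, were added after the data were seen.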

Additional observations from a re-analysis of the deposited data

Results flagged for a closer look

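The lead probe sets of the 9 measured members were checked for a single array far from the others of its IMF group of 10, on the log2 scale, with Dixon's ratio of gap to range (critical value 0.466). Of 18 such groups 10 held one. Chance marks about 1 in 20 groups, but the members were picked for such arrays, so the count is a description and no test. In the low IMF group the array was low 3 each time, with 83307 for ALB (next array 440), 10652 for AHSG (749), 5410 for APOA2 (28.4), 3902 for TF (63.4), 36.3 for FGB (7.98), 6378 for SERPINA1 (55.1) and 1112 for AMBP (40.8). In the high IMF group it was high 10, with 8566 for AHSG (605), 6722 for SERPINA1 (57.3) and 926 for AMBP (42.8). For ALB, TF, APOA2 and FGG high 10 did not stand out from its group by this measure; high 8 lay between it and the rest.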

How the results depend on the processing

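The counts of called probe sets for IMF, title and the interaction stayed at 0, within 1.5 times 9858, and at 0 under every alternative run, including 9587 to 9841 for title with each array left out. Arrays with at least 3 raised members numbered 4, and 3 at a threshold of 8, where raised members on high 6 went from 3 to 1. Among the 7 members raised with ALB on both low 3 and high 10, the number whose ratio to ALB changed by over 1 log2 unit between them moved from 2 to 1 with quantile normalization. No member difference by IMF passed a test, and its sign was not stable. In the animals without S alone it was -1.49 for ALB, -0.16 for APOA1, -1.85 for APOA2, -1.44 for TF, -1.82 for FGG and -1.43 for SERPINA1. In the S-titled animals alone it was 0.87 for AHSG and 1.28 for AMBP. Without the 4 arrays with ALB over 2000 it was -0.27 for APOA1, -0.086 for FGG and -0.039 for SERPINA1. For AMBP it was 0.034 with centring and 0.015 with quantile normalization. With each array left out it ran from -0.51 to 0.34 for AHSG, -0.12 to 0.16 for APOA1, -0.68 to 0.80 for SERPINA1 and -0.51 to 0.53 for AMBP. Under the same omissions it kept its sign for ALB (0.26 to 1.71), APOA2 (0.04 to 1.68), TF (0.40 to 1.61) and FGG (0.12 to 1.55). In alternatives added after the data were seen, the difference in animals without S and without low 3 was -0.16 for APOA1, -0.28 for APOA2, -0.13 for TF and -0.056 for FGG. In S-titled animals without high 10 it was 0.013 for AHSG, -0.025 for APOA1 and 0.35 for AMBP, and over all animals without both arrays -0.15 for APOA1 and 0.02 for AMBP. For S against other titles, leaving out the 4 arrays gave -0.32 for APOA2 and -0.44 for TF, and leaving out each array gave -0.85 to 0.052 for AHSG, -0.33 to 1.40 for APOA2, -0.31 to 0.97 for TF, -0.42 to 1.14 for SERPINA1 and -0.14 to 0.95 for AMBP. The lowest and highest of these 5 ranges came from leaving out high 10 and low 3. The interaction without the 4 arrays was -0.038 for ALB, -0.0029 for APOA1 and -0.10 for SERPINA1. The cause of these changes was not tested beyond the arrays named. No paired analysis was possible because the labels give no numbers that pair animals. Signal over background is not known here, which limits what dim members such as FGB and FGG show.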
